A study of Homo sapiens with 48 samples.

Results

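Transcripts of 7 regulators of the neural crest, SOX10, PAX3, SNAI2, FOXD3, NGFR, ETS1 and MSX1, were followed through human embryonic stem cells, directed germ layer cultures and embryoid bodies. The genes were taken by symbol from a RASL-Seq panel, a targeted assay that counts ligated probe pairs, and every probe of each gene was kept, which gave 7 of 452 genes and 20 of 1113 probes. All 48 libraries came from the human line WA09 (also called H9), which is pluripotent. Embryoid bodies were aggregated from cells detached with Accutase, at 20000 cells a well in ultra-low-attachment round-bottom plates, and were kept for 7 days in Essential 6 medium. For the first 24 hours the medium held either the ROCK inhibitor Y-27632 (Y27 EBs, 16 libraries) or CEPT, a cocktail of chroman 1, emricasan, polyamines and trans-ISRIB (CEPT EBs, 16 libraries). The controls, with 4 libraries each, were untreated stem cells (hESC), ectoderm kept for 6 days in Essential 6 with A83-01 at 2 µM and LDN-193189 at 100 nM, and mesoderm and endoderm, each made over 5 days with a commercial STEMdiff kit. The 6 groups shared the cell line and no agent. The labels do not say whether libraries of a group came from separate cultures, so p-values may measure only the spread between these libraries.

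The neural crest arises at the border of the neural plate, where PAX3 and MSX1 mark the prospective crest. SNAI2, FOXD3, ETS1 and SOX10 then specify crest cells, which leave the neural tube and give rise to peripheral neurons, glia, pigment cells and much of the facial skeleton, and the neurotrophin receptor NGFR (p75) is a surface protein used to sort migratory crest cells. None of these genes belongs to the crest alone: FOXD3 is also a factor of pluripotent cells, MSX1 is expressed in early and lateral mesoderm, SNAI2 acts in mesodermal cells that leave an epithelium, ETS1 in endothelial and blood cells, and SOX10 in glia, oligodendrocytes included.

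The start regions of PAX3, FOXD3 and MSX1 are shown because they were the only ones available, 3 of the 7 genes. Each is the 250 bases before the gene start in RefSeq (GRCh38.p14). These genes set the groups apart in different ways: PAX3 was at 0 reads in every hESC library, FOXD3 was high in hESC, and MSX1 was high in mesoderm. A link between the sequences and these levels was not tested. PAX3 lies at chr2:222298999-222299248 on the minus strand, FOXD3 at chr1:63322317-63322566 on the plus strand and MSX1 at chr4:4859415-4859664 on the plus strand. Capitals mark matches on either strand to 5 short motifs named after the sequences.
PAX3: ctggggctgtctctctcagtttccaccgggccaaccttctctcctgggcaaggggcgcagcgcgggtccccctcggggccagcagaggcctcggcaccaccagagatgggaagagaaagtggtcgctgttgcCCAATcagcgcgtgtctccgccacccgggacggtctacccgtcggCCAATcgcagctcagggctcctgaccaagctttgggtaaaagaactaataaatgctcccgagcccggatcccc
FOXD3: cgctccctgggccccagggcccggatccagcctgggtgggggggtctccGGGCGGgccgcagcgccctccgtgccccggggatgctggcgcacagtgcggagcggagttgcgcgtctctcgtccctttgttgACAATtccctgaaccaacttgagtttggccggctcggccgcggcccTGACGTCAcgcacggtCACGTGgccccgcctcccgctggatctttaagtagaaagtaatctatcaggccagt
MSX1: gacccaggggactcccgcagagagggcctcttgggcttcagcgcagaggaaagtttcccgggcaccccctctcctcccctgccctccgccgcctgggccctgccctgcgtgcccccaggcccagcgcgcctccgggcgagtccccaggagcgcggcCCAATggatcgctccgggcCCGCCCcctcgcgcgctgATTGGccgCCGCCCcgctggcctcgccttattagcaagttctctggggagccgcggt
The CCAAT box, spelled CCAAT and found in 32% of 35116 promoters of this length, matched PAX3 at -118 and -73 from the gene start. It matched MSX1 at -94 and -57 and did not match FOXD3. FOXD3 held the E-box CACGTG at -56, present in 6.34% of promoters. It held the cyclic AMP response element TGACGTCA at -72, present in 1.65%. The short SOX motif ACAAT (24.6% of promoters) stood at -118 in FOXD3 only. The GC box GGGCGG (42.6% of promoters) stood at -201 in FOXD3 and at -75 and -49 in MSX1. The matches describe letters in these windows, and binding was not measured.

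Each value is the reads of 1 probe as CPM (reads scaled to a common library size) by edgeR's TMM factors over all libraries. Probes differ in efficiency, so levels are compared between groups for the same probe and not between genes. In bulk lysates, fewer cells of a type and less RNA per cell cannot be told apart. Library totals ran from 379810 to 5577868 reads (median 3583316), and 1 library, Y27 EB replicate 15, lay under 0.25 of the median. The labels matched marker levels in most cases: NANOG was at 1772 ± 165 CPM in hESC (SD, n = 4), PAX6 at 894 ± 61.3 in ectoderm, T (brachyury) at 1060.0 ± 117 in mesoderm and SOX17 at 2036 ± 286 in endoderm. POU5F1, which defines pluripotent cells, gave only 8.63 ± 2.60 CPM in hESC. LEFTY2 took 266866 ± 19709.7 CPM of the endoderm libraries.

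All 7 genes were higher in CEPT EBs and in Y27 EBs than in hESC by at least 1 probe. By the most abundant probe of each gene, embryoid bodies held the highest levels of the series for 6 genes, and mesoderm did for MSX1. The control next in order differed: ectoderm for PAX3, mesoderm for SNAI2, hESC for FOXD3, endoderm for ETS1 and SOX10, and ectoderm and hESC, which were not separated, for NGFR.

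**Figure D1:**
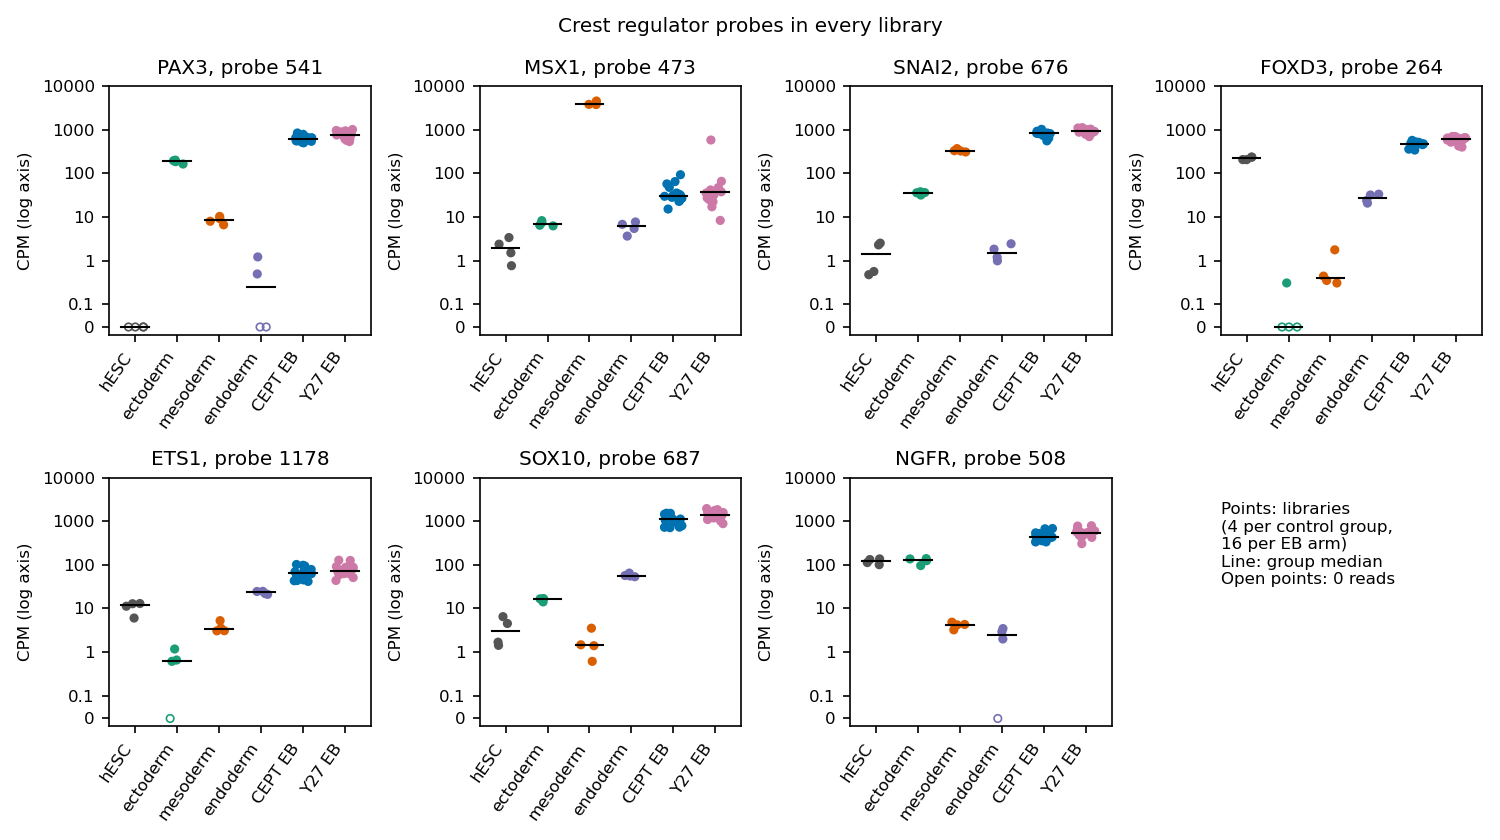
CPM (log axis) of the most abundant probe of each gene in each of the 48 libraries, by group; lines are group medians and open points are libraries with 0 reads. The 32 embryoid body libraries lie above every control for 6 genes, while for MSX1 the 4 mesoderm libraries lie above all others.

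PAX3, a paired-box factor of the plate border and dorsal neural tube, was not detected in stem cells. Its 3′UTR probe 541 had 0 reads in all 4 hESC libraries. The ectoderm libraries (replicates 1 to 4, here and below) gave 194, 184, 163 and 200 CPM, the mesoderm libraries 9.08, 7.95, 6.60 and 10.3, and the endoderm libraries 1.21, 0, 0.492 and 0. The lowest, median and highest library were at 499, 622 and 837 CPM among CEPT EBs and at 533, 767 and 1007 among Y27 EBs. The embryoid body arms overlapped each other and no control. Against a limit of 3 reads a library, PAX3 541 was at least 432-fold higher in CEPT EBs, at least 539.9-fold higher in Y27 EBs and at least 129-fold higher in ectoderm than in hESC. Over ectoderm, the log2 fold change was 1.67 ± 0.14 (SE) for CEPT EBs (edgeR's quasi-likelihood test, Benjamini-Hochberg adjusted p = 2.21e-10) and 1.68 ± 0.18 for Y27 EBs (adjusted p = 2.28e-08). Mesoderm lay below ectoderm by a log2 fold change of -4.64 ± 0.22 (adjusted p = 9.97e-12). Endoderm and hESC were not separated (adjusted p = 0.0543). The coding probe 539 kept the order, at 232 ± 37.1 CPM in CEPT EBs, 323 ± 74.1 in Y27 EBs (SD, n = 16), 61.7 ± 4.33 in ectoderm and 2.54 ± 0.674 in mesoderm (SD, n = 4), with 0 reads in hESC and endoderm.

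MSX1, a homeobox repressor of the plate border and of early mesoderm, was highest in the mesoderm controls. Its 3′UTR probe 473 gave 3908, 3758, 4532 and 3798 CPM there. It gave 2.37, 0.761, 3.36 and 1.5 in hESC, 8.21, 6.23, 7.40 and 6.43 in ectoderm and 3.63, 6.76, 5.42 and 7.66 in endoderm. Among CEPT EBs the lowest, median and highest library were at 15.2, 30.3 and 92.6 CPM, and among Y27 EBs at 8.31, 36.4 and 579. Mesoderm stood clear of all other libraries, and all 32 embryoid body libraries lay between it and the other controls. Mesoderm exceeded hESC by 10.74 ± 0.19 on the log2 scale (edgeR, adjusted p = 6.06e-19). The log2 fold change over mesoderm was -6.84 ± 0.27 for CEPT EBs (adjusted p = 1.52e-16) and -6.35 ± 0.64 for Y27 EBs (adjusted p = 8.21e-09). CEPT EBs still exceeded hESC by 4.26 ± 0.52 (adjusted p = 1.23e-07) and ectoderm by 2.32 ± 0.41 (adjusted p = 2.37e-05). Ectoderm and endoderm were not separated (adjusted p = 0.185).

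The other MSX1 probes, also in the 3′UTR, kept mesoderm highest and differed in embryoid bodies. Probe 474 was at 676 ± 227 CPM in mesoderm (SD, n = 4) and 16 ± 10.8 in CEPT EBs (SD, n = 16). Probe 472 was at 268 ± 213 CPM in mesoderm and 1.55 ± 1.94 in CEPT EBs, with 0 reads in 8 of 16 libraries. Probe 473 had 5.65 times the reads of probe 474 in mesoderm (4.66 to 13.1 by library) and 2.44 times in CEPT EBs (1.25 to 5.85).

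The highest MSX1 level among Y27 EBs came from replicate 15, the shallow library. It gave 579 CPM for probe 473 from 266 reads, where the other 15 ran from 8.31 to 65.3. Of 8 mesoderm genes on the panel, 4 lay above the other 15 libraries there, among them HAND1 at 2597 CPM (others 0 to 146) and FOXF1 at 54.4 (others 0 to 3.87), named after their values were seen, and 4 lay within their range, with T at 0 reads. The summed CPM of the 8 genes ran from 840.1 to 3668 CPM in Y27 EBs and from 589.6 to 1610.5 in CEPT EBs. Most of the sum was ISL1 in CEPT EBs and in the other 15 Y27 EB libraries (ISL1 median 1203 CPM there). ISL1 was low in the mesoderm controls, and in replicate 15 it gave 946 CPM. FOXD3 264 (398 CPM) and NGFR 508 (305) were below the other 15 libraries in replicate 15. The part of mesoderm cells or of depth in these values was not tested. Y27 EBs exceeded hESC for MSX1 473 by 5.06 ± 1.21 with replicate 15 and by 4.11 without it, and their difference from mesoderm was -6.75 without it.

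SNAI2, a zinc-finger repressor of epithelial genes, was high in embryoid bodies and next in mesoderm. Its 3′UTR probe 676 gave 308, 367, 324 and 329 CPM in mesoderm and 31.7, 35.7, 36.1 and 37.7 in ectoderm. It gave 0.474, 2.28, 0.561 and 2.51 in hESC and 2.42, 1.19, 0.985 and 1.82 in endoderm. The lowest, median and highest library were at 553, 819 and 1016 CPM among CEPT EBs and at 691, 912 and 1110.2 among Y27 EBs. Embryoid bodies, mesoderm and ectoderm formed separate ranges, while hESC and endoderm overlapped near 0. Over mesoderm, the log2 fold change was 1.20 ± 0.14 for CEPT EBs (edgeR, adjusted p = 4.14e-08) and 1.21 ± 0.11 for Y27 EBs (adjusted p = 1.23e-09). Mesoderm exceeded ectoderm by 3.01 ± 0.16 (adjusted p = 2.02e-12), and hESC and endoderm were not separated (adjusted p = 0.923). The coding probe 677 (137 ± 21.0 CPM in mesoderm) and the 3′UTR probe 678 (51.6 ± 3.02) also placed mesoderm next below the embryoid bodies, although the ranges of CEPT EBs and mesoderm overlapped for probe 677.

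FOXD3, a forkhead factor of premigratory crest and of pluripotent cells, was high in stem cells and low in each germ layer culture. All its probes lie in the 3′UTR, and probe 264 gave 205, 235, 206 and 234 CPM in hESC. It gave 0, 0, 0 and 0.306 in ectoderm, 0.349, 0.306, 0.440 and 1.76 in mesoderm and 23.8, 31.8, 20.7 and 33.2 in endoderm. The lowest, median and highest library were at 341, 464 and 567 CPM among CEPT EBs and at 398, 613 and 696 among Y27 EBs. All embryoid body libraries lay above all hESC libraries, and ectoderm and mesoderm lay near 0. Over hESC, the log2 fold change was 1.09 ± 0.13 for CEPT EBs (edgeR, adjusted p = 5.69e-08) and 1.43 ± 0.13 for Y27 EBs (adjusted p = 2.38e-09), tests that share the hESC libraries. Endoderm lay below hESC by a log2 fold change of -3.17 ± 0.19 (adjusted p = 1.45e-11). Ectoderm held 1 read in all, and hESC exceeded it by a ratio of 2427 (95% counting interval 436 to 95878). Mesoderm was called above ectoderm (adjusted p = 0.0295), and without mesoderm replicate 4 (adjusted p = 0.281) or any of ectoderm replicates 1 to 3 it was not.

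While FOXD3 rose, pluripotency genes fell. Of 15 pluripotency genes tested, 13 were lower in CEPT EBs than in hESC and 12 were lower in Y27 EBs, while LIN28B, an RNA-binding protein, was higher in both. The list's median log2 fold change was -2.48 in CEPT EBs and -2.28 in Y27 EBs, where that of all probes was 0.47 and 0.39. NANOG, a core pluripotency factor, was at 42.5 ± 36.2 CPM in CEPT EBs and 32.2 ± 28.3 in Y27 EBs (SD, n = 16). GDF3, a TGF-beta family ligand of stem cells, was at 227 ± 12.2 CPM in hESC, 15.8 ± 13.5 in CEPT EBs and 14.4 ± 26.6 in Y27 EBs. In ectoderm, where 11 of 15 of these genes were lower than in hESC and 2 higher, FOXD3 was lower as well. Its probes changed by different amounts: probe 264 had 6.16 times the reads of probe 263 in hESC (4.92 to 7.20 by library), 2.87 times in CEPT EBs (1.97 to 5.20) and 3.68 times in Y27 EBs (2.65 to 5.32). Probe 263 exceeded hESC by 2.19 ± 0.31 in CEPT EBs (edgeR, adjusted p = 9.07e-07), and the difference between the probes was not tested.

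ETS1, an ETS-family factor of cranial crest and of endothelial and blood cells, was next highest in endoderm. Probe 1178 lies at position 3037 of its RefSeq transcript. The paired GENCODE transcript is shorter (2231 bases), so the probe was not placed. It gave 12.8, 12.9, 11.2 and 6.01 CPM in hESC and 21.0, 21.9, 24.6 and 24.4 in endoderm. It gave 5.24, 3.06, 3.08 and 3.52 in mesoderm and 1.17, 0.655, 0 and 0.613 in ectoderm. Among CEPT EBs the lowest, median and highest library were at 41.6, 66.1 and 101 CPM, and among Y27 EBs at 43.7, 72.6 and 127. Embryoid bodies, endoderm, hESC, mesoderm and ectoderm followed in this order with no overlap between neighbours. Over endoderm, the log2 fold change was 1.59 ± 0.25 for CEPT EBs (edgeR, adjusted p = 4.78e-06) and 1.70 ± 0.25 for Y27 EBs (adjusted p = 2.56e-06). Endoderm exceeded hESC by 0.92 ± 0.25 (adjusted p = 0.00283). The weaker probes did not separate CEPT EBs from endoderm: 1180 was at 7.05 ± 4.59 and 7.57 ± 3.05 CPM (adjusted p = 0.935), and 1179 at 4.33 ± 5.24 and 3.65 ± 1.5 (adjusted p = 0.82). Endothelial and blood genes split: of 3 tested in CEPT EBs against hESC, 1 was higher and 2 were lower. The higher one was CDH5, the cadherin of endothelial junctions, at 10.0 ± 7.10 CPM in CEPT EBs, 9.03 ± 5.95 in Y27 EBs and 0.251 ± 0.501 in hESC. CDH5 passed the filter on low reads through embryoid bodies alone and could only be called higher. The lower ones were KDR, a receptor for vascular endothelial growth factor, at 9.83 ± 6.75 CPM in CEPT EBs and 161 ± 9.12 in hESC, and LCK, a kinase of T cells, at 0.389 ± 0.980 and 40.9 ± 4.84. In Y27 EBs the same 3 genes were called, in the same directions. PECAM1, also endothelial, was at 0.699 ± 1.10 CPM in CEPT EBs and 0 reads in hESC. The summed level of the 5 genes on the panel, most of it KDR and LCK in hESC, ran from 4.09 to 43.9 CPM in CEPT EBs, from 5.75 to 137 in Y27 EBs and from 198 to 209.5 in hESC. The part of such cells in the ETS1 level was not tested.

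SOX10, a SOXE factor of migratory crest and later of glia and pigment cells, was far higher in embryoid bodies than in any control. Its 3′UTR probe 687 gave 1.42, 6.47, 1.68 and 4.51 CPM in hESC and 14.1, 16.7, 16.7 and 16.5 in ectoderm. It gave 1.40, 0.612, 3.52 and 1.47 in mesoderm and 55.3, 53.3, 56.6 and 64.5 in endoderm. The lowest, median and highest library were at 709, 1097 and 1518 CPM among CEPT EBs and at 877, 1360.4 and 1942 among Y27 EBs. Every embryoid body library lay far above the highest control library. Over hESC, the log2 fold change was 8.25 ± 0.39 for CEPT EBs (edgeR, adjusted p = 9.51e-15) and 8.59 ± 0.36 for Y27 EBs (adjusted p = 3.12e-15). Over endoderm it was 4.30 ± 0.25 for CEPT EBs (adjusted p = 2.44e-13). Endoderm exceeded ectoderm by 1.72 ± 0.24 (adjusted p = 2.37e-06), a difference not called by the coding probe 685 (12.3 ± 10.3 and 5.27 ± 4.60 CPM, adjusted p = 0.0587). Mesoderm lay below hESC by a log2 fold change of -1.43 ± 0.46 (adjusted p = 0.00926), a call lost without hESC replicate 2 (adjusted p = 0.109) and without mesoderm replicate 2 (adjusted p = 0.0668).

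NGFR, the neurotrophin receptor, stood at overlapping levels in stem cells and ectoderm. Its 3′UTR probe 508 gave 100.5, 136, 132 and 112 CPM in hESC and 136, 124, 95.8 and 138 in ectoderm, which overlapped. It gave 4.19, 4.28, 4.84 and 3.23 in mesoderm and 0, 1.99, 3.45 and 2.92 in endoderm. The lowest, median and highest library were at 334, 425 and 677 CPM among CEPT EBs and at 305, 544 and 784 among Y27 EBs, all above the controls. Over hESC, the log2 fold change was 1.96 ± 0.20 for CEPT EBs (edgeR, adjusted p = 7.96e-09) and 2.21 ± 0.20 for Y27 EBs (adjusted p = 9.24e-10). Ectoderm differed from hESC by -0.01 ± 0.20 (adjusted p = 0.967). With libraries scaled to reference genes, which moved the median of all probes by 1.03, that value was 1.04. Mesoderm lay below hESC by a log2 fold change of -5.14 ± 0.27 (adjusted p = 2.09e-12). Probe 507 was weak (7.05 ± 4.18 CPM in Y27 EBs), and probe 509 had 0 reads in 11 of 16 CEPT EB libraries.

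Over all member probes tested, 16 of 18 were higher in CEPT EBs than in hESC (42.2% of all probes were higher and 31.2% lower) and 17 of 19 in Y27 EBs (41.5% and 32.6%), with none lower. Against ectoderm, 17 of 19 were higher in CEPT EBs (38.4% of all probes higher, 34.3% lower) and 18 of 19 in Y27 EBs (32.6% and 40.0%). Against endoderm, 16 of 18 were higher in CEPT EBs (45.5% and 33.4%) and 16 of 19 in Y27 EBs (42.4% and 35.1%). Against mesoderm, 14 of 19 were higher and 3 lower in CEPT EBs (40.6% and 32.5%), and 15 of 19 higher and 3 lower in Y27 EBs (35.3% and 35.4%), the lower ones being the MSX1 probes. These counts cover probes that passed the filter on low reads, and some passed through the embryoid body libraries alone and could only be called higher. SOX10 686, PAX3 539, PAX3 541 and SNAI2 678 had 0 reads in every hESC library. With at least 10 reads required in every library, 5 member probes were left in CEPT EBs against hESC, all called higher, and 426 of 544 of all probes were called. Under the same rule, 4 member probes were left in CEPT EBs against endoderm, all called higher, and 439 of 529 of all probes were called. The counts are therefore given as a description. Tests against 1 control share its libraries. The call of NGFR 507 in CEPT EBs against hESC was made in 7 of 20 fits that each left out 1 library, and that of ETS1 1179 against ectoderm in 17 of 20 for CEPT EBs and 18 of 20 for Y27 EBs. Other scalings moved the split of all probes: against hESC, reference genes gave 484 higher and 203 lower for CEPT EBs (397 and 293 with TMM) and 541 higher and 161 lower for Y27 EBs (400 and 314). For Y27 EBs, library totals gave 419 higher and 249 lower against ectoderm (314 and 385 with TMM), 431 higher and 236 lower against mesoderm (340 and 341) and 541 higher and 213 lower against endoderm (410 and 340), and reference genes gave 441 higher and 213 lower against mesoderm.

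Among the controls the members moved in both directions. Against hESC, 8 of 16 member probes were higher and 5 lower in ectoderm (43.2% and 38.5% of all probes), 8 and 6 in mesoderm (34.0% and 43.5%), and 4 and 4 in endoderm (38.4% and 39.8%). Against ectoderm, 9 were higher and 5 lower in mesoderm (38.2% and 42.0%), and 6 and 6 in endoderm (39.9% and 39.9%). Mesoderm against endoderm gave 8 higher and 7 lower (37.2% and 39.0%). Scaled to reference genes, all probes split into 546 higher and 212 lower in ectoderm (390 and 348 with TMM), 458 higher and 232 lower in mesoderm (307 and 393) and 542 higher and 205 lower in endoderm (347 and 359) against hESC. With library totals the split was 376 higher and 309 lower for mesoderm against hESC, 292 higher and 443 lower for endoderm against ectoderm (360 and 360 with TMM) and 461 higher and 255 lower for mesoderm against endoderm (336 and 352).

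Other border genes did not follow PAX3. All 5 other plate border genes on the panel, ZIC1, ZIC2, GBX2 and ID1 among them, were lower in embryoid bodies of either arm than in hESC, with a summed level of 100.1 to 462 CPM in CEPT EBs, 91.4 to 384 in Y27 EBs and 2340.1 to 2430.3 in hESC. ZIC1, a zinc-finger factor of the border and dorsal neural tube, was at 18.4 ± 9.47 CPM in CEPT EBs and 1318 ± 24.1 in ectoderm. The panel held 2 other crest specifiers, and they split, 1 higher and 1 lower than hESC in either arm. CDH6, a cadherin of the dorsal neural tube and emerging crest, was at 286 ± 89.3 CPM in CEPT EBs and 252 ± 66.0 in Y27 EBs. It was at no more than 1.61 ± 0.856 in the controls, so it passed the filter on low reads through embryoid bodies alone and could only be called higher. MYC, a growth regulator that acts early in crest and is also high in pluripotent cells, was the lower one, at 57.7 ± 17.2 CPM in CEPT EBs, 50.7 ± 23.5 in Y27 EBs and 421 ± 18.6 in hESC.

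Genes of crest derivatives were higher in embryoid bodies than in hESC, 4 of 5 tested in CEPT EBs and 4 of 4 in Y27 EBs. Of the 6 on the panel, 0 passed the filter on low reads among the controls, so these genes could only be called higher. S100B, a calcium-binding protein of glia, was at 315 ± 132 CPM in CEPT EBs, 167 ± 56.3 in Y27 EBs and 0.316 ± 0.380 in hESC.

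Markers of neighbouring tissues were read in the same groups. All 10 neural plate genes tested were higher in ectoderm than in hESC (43.2% of all probes were higher). Of 9 tested in either embryoid body arm, 6 were higher than in hESC and 2 lower in CEPT EBs. In Y27 EBs 5 were higher and 2 lower. Against ectoderm, 9 of 10 were lower in either arm and 1 was higher. PAX6, a paired-box factor, was at 894 ± 61.3 CPM in ectoderm, 18.6 ± 10.8 in CEPT EBs and 0.251 ± 0.501 in hESC. In mesoderm, 6 of 7 mesoderm genes were higher than in hESC together with MSX1, including CDX2 (826 ± 53.1 CPM), HAND1 (296 ± 70.0) and FOXF1 (75.2 ± 3.88). In CEPT EBs these were at 0.313 ± 0.649, 39.4 ± 77.2 and 0.362 ± 0.899 CPM. Of the mesoderm genes tested against hESC, 3 of 4 were higher in CEPT EBs and 4 of 6 in Y27 EBs, with 0 lower. HAND1, CDX2, FOXF1 and ISL1 were among 5 of 8 panel genes with 0 reads in hESC, which could only be called higher. Against mesoderm, 1 of 6 was higher and 4 lower in CEPT EBs, and 1 of 8 higher and 3 lower in Y27 EBs. ISL1, a factor of cardiac mesoderm that also marks sensory neurons, was at 938 ± 256 CPM in CEPT EBs and 4.56 ± 1.96 in mesoderm. Genes of the oligodendrocyte lineage, in which SOX10 also acts, split as well. Of 4 tested in either arm, 3 were higher than in hESC (OLIG1, OLIG2 and PDGFRA) and 1 was lower (MBP). PDGFRA had 0 reads in hESC and could only be called higher. OLIG1, a factor of the lineage, was at 127 ± 38.2 CPM in CEPT EBs, 142 ± 50.1 in Y27 EBs and 42.7 ± 10.1 in hESC. MBP, myelin basic protein, was at 2.43 ± 4.29, 3.05 ± 4.31 and 114 ± 9.91 CPM. The summed level of the 5 genes on the panel, most of it MBP in hESC, ran from 104 to 262 CPM in CEPT EBs, from 154 to 372 in Y27 EBs and from 157 to 179.6 in hESC, and NKX2-2 was at 0 reads in Y27 EBs and in hESC. The part of these cell types in the member levels was not tested.

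**Figure D2:**
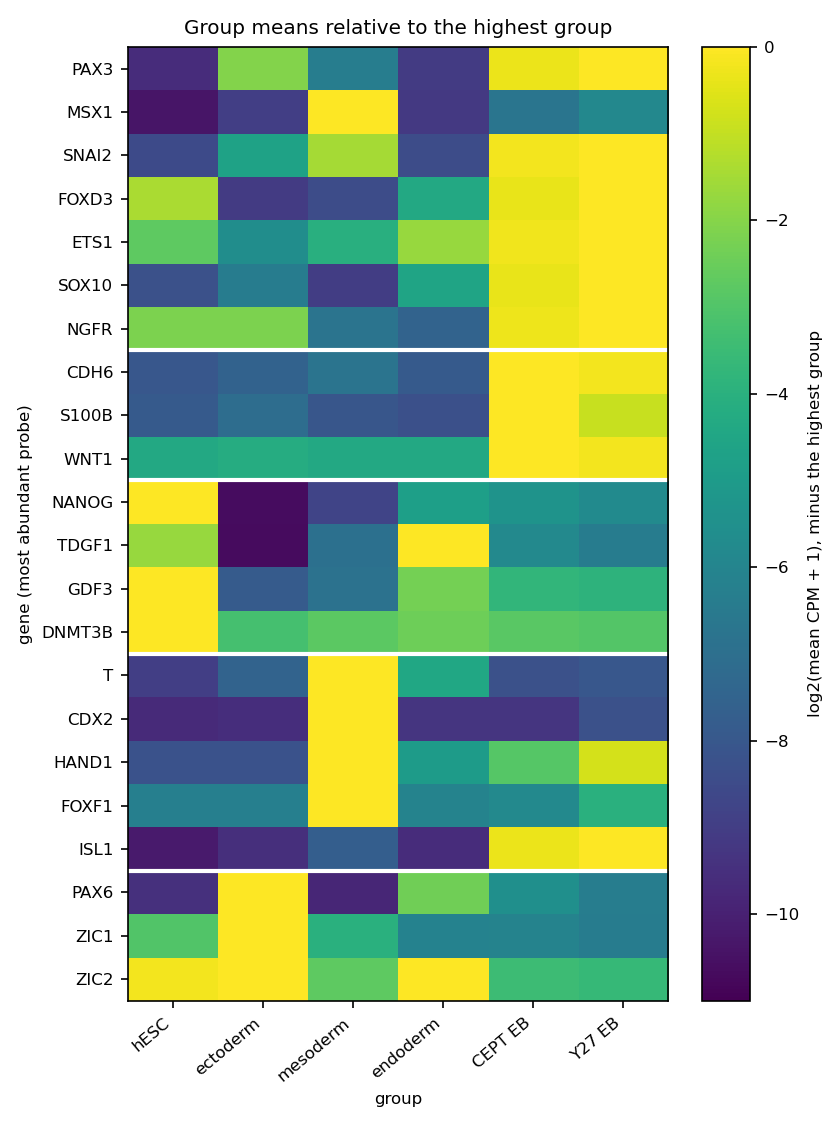
Group means of the 7 members (top block) and of context genes as log2(mean CPM + 1) minus the highest group of the same gene; the blocks below hold crest and dorsal, pluripotency, mesoderm, and neural plate and border genes. FOXD3 is highest in the embryoid bodies, where NANOG and GDF3 are low, and MSX1 is highest in mesoderm, as are CDX2, HAND1 and FOXF1.

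Between the embryoid body arms, SOX10, PAX3, SNAI2 and FOXD3 were lower after CEPT than after Y-27632. Of 20 member probes, 18 passed the filter on low counts, 9 were lower in CEPT EBs and none was higher (23.6% of 867 probes were called, 10.6% higher and 13% lower). The ranges of the arms overlapped in every case (0.231% of all probes had ranges apart). The median log2 fold change of CEPT EBs over Y27 EBs was -0.38 for the member probes and -0.04 for all probes. The called probes were the 3 of SOX10, both of PAX3, the 3 of SNAI2 and 1 of 3 of FOXD3.

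SOX10 gave the lowest adjusted p of the members. Its coding probe 685 was at 88.5 ± 16.3 CPM in CEPT EBs against 138 ± 23.7 after Y-27632 (SD, n = 16), a log2 fold change of -0.66 ± 0.10 (edgeR, adjusted p = 6.73e-06), and 16 of 16 CEPT libraries lay below the Y27 EB median. Probe 687 changed by -0.38 ± 0.12 (adjusted p = 0.0185, 13 of 16), a call lost without Y27 EB replicate 13 (adjusted p = 0.0532) and with a replicate block. Probe 686 changed by -0.48 ± 0.17 (adjusted p = 0.0348, 14 of 16), a call made in 18 of 32 fits that each left out 1 library. Median-ratio factors, DESeq2 and 1 fit of all libraries did not call probe 686, while upper-quartile factors, library totals and reference genes did. PAX3 was lower by probe 539, with -0.50 ± 0.11 (adjusted p = 0.000607, 16 of 16), and by probe 541, with -0.34 ± 0.09 (adjusted p = 0.00751, 14 of 16).

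SNAI2 was lower by probe 677, with -0.44 ± 0.11 (edgeR, adjusted p = 0.00209, 16 of 16 CEPT libraries below the Y27 EB median), and by probe 678, with -0.51 ± 0.13 (adjusted p = 0.00379, 15 of 16). Its most abundant probe 676 was only just called (-0.20 ± 0.07, adjusted p = 0.0445), and in 6 of 32 fits without 1 library. Median-ratio factors, upper-quartile factors, DESeq2, a replicate block and 1 fit of all libraries did not call probe 676, while library totals and reference genes did. FOXD3 was lower by probe 264 (456 ± 59.6 CPM after CEPT, 589 ± 87.3 after Y-27632, -0.39 ± 0.08, adjusted p = 0.000575, 16 of 16). Probe 263 in the same 3′UTR was at 159.8 ± 58.0 and 157 ± 33.8 CPM (adjusted p = 0.996), and probe 262 at 25.1 ± 9.69 and 27.6 ± 8.76 (adjusted p = 0.588).

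With TMM, all 32 libraries and no replicate block, NGFR, ETS1 and MSX1 were not called by any single probe. NGFR 508 was at 457 ± 109.8 CPM after CEPT and 552 ± 123 after Y-27632, with -0.29 ± 0.12 (edgeR, adjusted p = 0.0668). Without Y27 EB replicate 15 it was called lower, with -0.33 ± 0.11 (edgeR, adjusted p = 0.022). It was also called with a replicate block, library totals or reference genes, and not with median-ratio factors, upper-quartile factors or DESeq2. With the reads of all probes of a gene summed, NGFR was called lower, with -0.30 ± 0.11 (adjusted p = 0.0455), along with SOX10, PAX3, SNAI2 and FOXD3. ETS1 1178 was at 66.3 ± 19.5 and 77.8 ± 23.5 CPM, with -0.25 ± 0.15 (adjusted p = 0.27). Library totals and reference genes called ETS1 1178 and 1180 lower, and the other scalings did not. MSX1 473 was at 37.1 ± 19.5 and 67.9 ± 137 CPM, with -0.77 ± 0.42 (adjusted p = 0.204), and without Y27 EB replicate 15 the value was 0.11.

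No member probe was called higher after CEPT under any scaling. The number called lower was 9 with TMM, 7 with median-ratio factors, 8 with upper-quartile factors, 12 with library totals and 12 with reference genes. Over all probes, 92 were higher and 113 lower with TMM, 107 and 75 with median-ratio factors, 48 and 291 with totals, and 50 and 260 with reference genes. Totals moved the median of all probes by -0.31 and reference genes by -0.27.

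**Figure D3:**
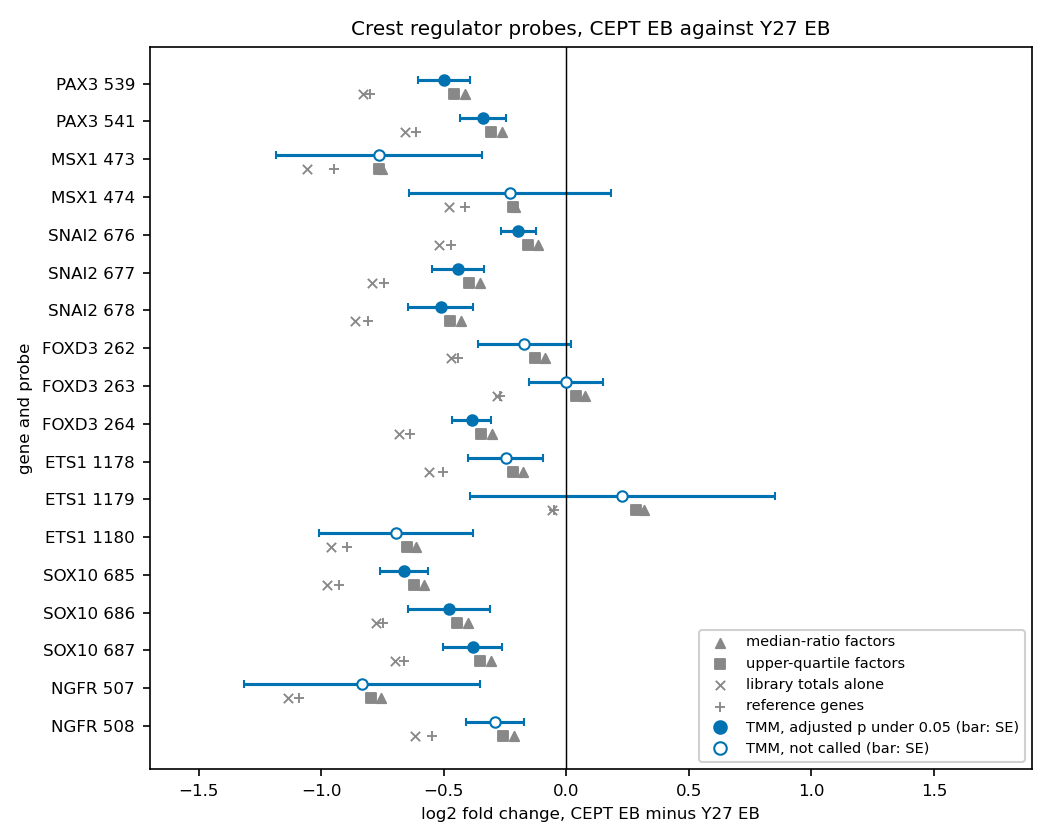
Log2 fold change of CEPT EBs over Y27 EBs for the 18 member probes tested, with TMM (circles; bars are SE; filled where the adjusted p is under 0.05) and with 4 other scalings (grey marks). The 9 filled circles, of SOX10, PAX3, SNAI2 and FOXD3, all lie on the negative side.

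The related genes had no common direction between the arms. None of the 5 plate border genes was called, and neither were CDH6 and MYC. Of 4 genes of crest derivatives tested, 1 was lower after CEPT and 1 was higher, S100B, with 0.90 ± 0.19 (edgeR, adjusted p = 0.000619). Of 8 neural plate genes, 3 were lower, the adhesion molecules CDH2 (-0.32 ± 0.08) and NCAM1 (-0.27 ± 0.10) and the progenitor factor SOX2 (-0.29 ± 0.10). OLIG2, of motor neuron and oligodendrocyte precursors, was lower (-0.96 ± 0.19, adjusted p = 0.000417), ISL1 was lower (-0.34 ± 0.12, adjusted p = 0.0331), and OTX2, a forebrain and midbrain factor, was higher (1.21 ± 0.27, adjusted p = 0.00128). Of 12 pluripotency genes tested, 1 was called, LIN28B, higher by 0.20 ± 0.06.

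Within an arm, libraries with more SOX10 tended to hold more PAX3, ETS1 and NGFR. Pearson's r of log2 CPM between the most abundant probes, a description over 16 libraries that share depth and composition, was 0.70 for SOX10 with PAX3 after CEPT and 0.60 after Y-27632. It was 0.74 and 0.67 for SOX10 with ETS1, 0.54 and 0.68 with NGFR, and 0.24 and 0.23 with SNAI2. With FOXD3 it was 0.53 and 0.38 (0.22 without Y27 EB replicate 15), and with MSX1 -0.09 and -0.31 (-0.01 without it). By rank (Spearman's rho), SOX10 gave 0.39 and 0.61 with NGFR and 0.47 and -0.01 with FOXD3. Only members were compared, so the r of other panel genes is not known. NGFR and MSX1 ran in opposite directions, with r of -0.62 after CEPT and -0.69 after Y-27632, or -0.35 without Y27 EB replicate 15.

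**Figure D4:**
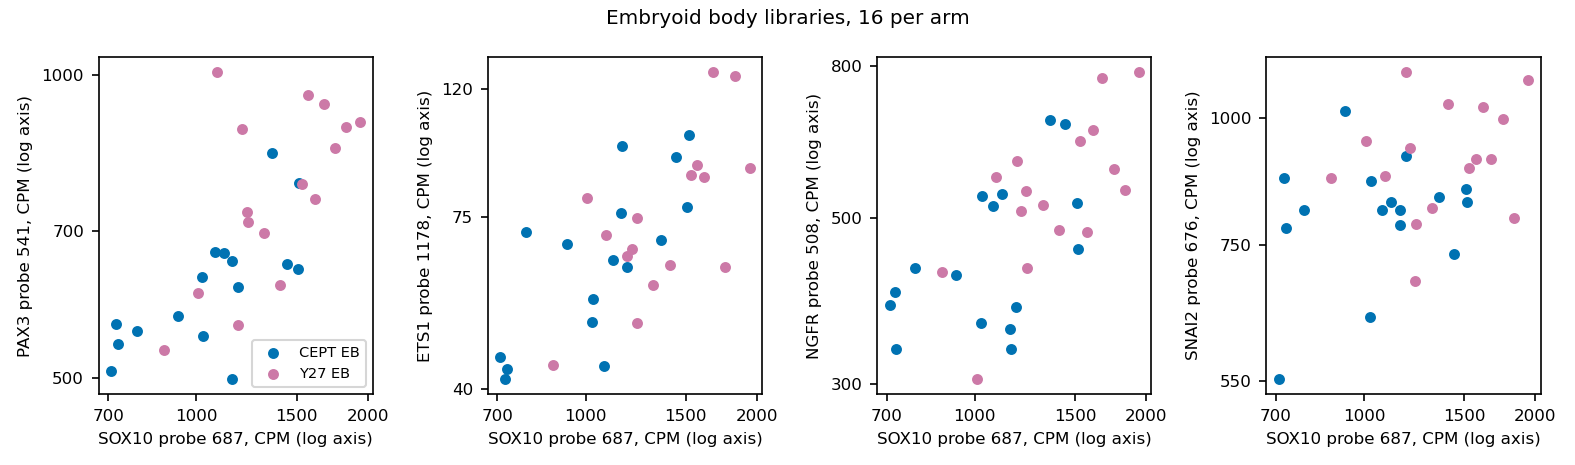
CPM (log axes) of SOX10 probe 687 against the most abundant probes of PAX3, ETS1, NGFR and SNAI2 in the 16 CEPT EB and 16 Y27 EB libraries. PAX3, ETS1 and NGFR tend to be higher where SOX10 is higher, and SNAI2 shows little relation to it.

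Over the 6 group means, the genes most like each member were found by Pearson's r of log2 CPM among 338 genes, a description with no test. SOX10 was most like RGS5 (0.95), FOXP2 (0.94) and SLC6A3 (0.93), and PAX3 most like NEUROG2 (0.96), TMSB15A (0.96) and GREB1L (0.95). SNAI2 was most like TXNIP (0.94), PPP1R3C (0.94) and FAS (0.93), and FOXD3 most like SRSF2 (0.95), CNTN1 (0.94) and MAT2A (0.94). NGFR was most like FZD3 (0.95), SLC17A7 (0.94) and OLFM3 (0.94), ETS1 most like TUBB3 (0.99), ACHE (0.98) and HUS1 (0.96), and MSX1 most like FOXF1 (0.94), GAD1 (0.94) and CD44 (0.94). Between members, r was 0.90 for FOXD3 with ETS1 and 0.85 for PAX3 with SNAI2, while MSX1 gave -0.17 with SOX10 and -0.36 with FOXD3.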

How the data were processed

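The deposited files hold raw read counts per probe pair of the RASL-Seq panel, per the labels made by a custom aligner whose version is not given in the sources used here. The submitters' processing notes name hg38 and DESeq2. The 48 columns used in the merged table were identical to the sample files, and 16 further columns matched no sample and were not used. Groups came from the sample labels. Probes were filtered with filterByExpr and scaled by TMM. They were tested in edgeR 4.0.16 (R 4.3.3) with glmQLFit (robust) and glmQLFTest, two-sided, and p-values were adjusted by Benjamini-Hochberg over every probe tested, with a threshold of 0.05. The embryoid body arms were fitted together (32 libraries), the 4 controls in 1 fit (16 libraries), and each arm with each control by itself. The scripts were tested on simulated data. Correlations used log2 CPM with a prior count of 2. Counting intervals are exact Poisson at 95%, and they and the limit of 3 reads cover counting error only. Alternatives were 4 other scalings, 2 other filters, DESeq2 1.42.0, a replicate block, 1 fit of all libraries, summing probes per gene, and leaving out the shallow library or each library in turn. Promoters came from RefSeq, and probe regions from GENCODE transcripts. Figures were drawn with Python 3.11.15 and matplotlib 3.10.9. The members and the lists of related genes were chosen with earlier results of these data known. All members are named. From each list the rule named up to 4 called genes of the largest change whose higher group averaged 50 reads or more, and other list genes were named by role after their values were seen; some list genes are counted but not reported by name here. The 3 most alike genes were named for each member, among probes whose group means spanned at least 2 on the log2 scale.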

Additional observations from a re-analysis of the deposited data

Results flagged for a closer look

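In groups of 4 control libraries, 2 of 29 combinations of group and member probe (6.90%) had a library far from the other 3 by the ratio of its gap to the range of the group, where chance gives about 5%. SOX10 probe 687 was at 14.1 CPM in ectoderm replicate 1 and at 16.5 to 16.7 in the other 3 ectoderm libraries. MSX1 probe 472 was at 585 CPM in mesoderm replicate 3 and at 142 to 197 in the other 3. In the same library probe 473 was the highest of its group, at 4532 CPM.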

How the results depend on the processing

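Of 220 called values of member probes over the 15 comparisons, 211 were called in every fit without 1 library and 9 were lost in at least 1, of which 3 were between the embryoid body arms, and none of the 220 changed sign in these fits or under the 4 other scalings. The count of member probes called without 1 library ran from 6 to 10 between the arms, 13 to 13 for ectoderm, 13 to 15 for mesoderm and 8 to 9 for endoderm against hESC, 13 to 14 for mesoderm and 12 to 13 for endoderm against ectoderm, and 15 to 16 for mesoderm against endoderm. For CEPT EB it ran from 15 to 16 against hESC, 16 to 17 against ectoderm, 17 to 18 against mesoderm and 16 to 16 against endoderm, and for Y27 EB 17 to 17, 17 to 18, 18 to 19 and 16 to 16. With at least 10 reads required in every library, the counts were 5, 7, 7 and 4 for CEPT EB against hESC, ectoderm, mesoderm and endoderm and 4, 7, 7 and 4 for Y27 EB, since fewer probes were tested, and between control groups no member probe was left to test. NGFR 508 in ectoderm against hESC turned to 1.04 with reference-gene scaling. Between the arms DESeq2 called 7 member probes, a replicate block 8 (and 167 of all probes in place of 205), 1 fit of all libraries 7, and leaving out the shallow library 10. The numbers did not pair the arms (16 pairs, r from -0.27 to 0.18, 3 over 0.1, 1 best with its own number), so the block is given only as an alternative. Same-numbered directed controls were more alike: r was 0.05 to 0.59 for mesoderm with ectoderm, 0.07 to 0.46 for endoderm with ectoderm and 0.05 to 0.47 for mesoderm with endoderm. Of 4 pairs each, 3, 3 and 2 were over 0.1. These contrasts were fitted without pairing, and with a replicate block 14, 13 and 15 member probes were called. Low reads limit PAX3, SNAI2 and FOXD3 in the controls, where a few reads decide a fold change: mesoderm replicate 4 or ectoderm replicate 4 for FOXD3 264, and endoderm replicate 1 for PAX3 541, moved the value by over 1.5 times when left out, so fitted fold changes of these are not given.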
